A study of Mus musculus with 50 samples.

Results

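The 10 genes described here are antioxidant and metal-binding genes, chosen by name from the 21954 genes in each deposited table: Hmox1, Nqo1, Gclc, Gclm, Txnrd1, Srxn1, Slc7a11, Sod2, Mt1 and Mt2. All 10 were found in the tables and all 10 passed the filter on low counts in every comparison. Their RNA was measured in mouse digit wounds after amputation of the distal terminal phalanx (P3, the last bone of the digit) and in cultured macrophages. The digits came from young adult male C57Bl/6 mice and were wound bed tissue of the hindlimb. Non-regenerative (NR) digits, labelled as amputated at 60% to 80% of the phalanx, were sampled at 0, 3, 6, 12 and 24 hours and at 3, 14 and 21 days with 3 digits per time, and at 7 days with 5 digits. The study defines non-regenerative as above 67%, and 17 of these 29 digits carried a label above that level, 1 was at it and 11 were below it. The 3 NR digits at 12 hours carried labels of 64% to 67%, so none of them was above that level. Intermediate (INT) digits, which the labels call Medium, were amputated at 41% to 55% and sampled at 0 and 24 hours and at 14 and 21 days with 3 digits per time. The macrophages were grown from bone marrow of young adult female C57BL/6 mice. They were then given basal medium alone (M0), with interferon-γ and lipopolysaccharide (M1) or with interleukin-4 (M2), with 3 libraries per state. The labels give 24 hours for M1 and M2 and call M0 Baseline without a time, so the culture time of M0 may differ.

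Most of these genes belong to a shared defence against oxidants and electrophiles. The transcription factor NRF2, encoded by Nfe2l2, is held at a low level by KEAP1 and, when released, binds antioxidant response elements (AREs) near genes such as Hmox1, Nqo1, Gclc, Gclm, Txnrd1, Srxn1 and Slc7a11, while BACH1 represses some of the same genes. Metallothioneins are small cysteine-rich proteins that bind zinc and copper, and their genes are switched on through metal response elements (MREs) by the zinc-sensing factor MTF1. Sod2 and the metallothioneins are also known as genes that inflammatory signals induce, and macrophages are known to raise many of these genes when they meet bacterial products.

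The digit libraries held 1468749 to 13011782 expected counts and the macrophage libraries 15683424 to 27904773. A count of 0 allows up to 3 counts, which is 0.231 to 2.043 scaled counts (CPM, counts scaled to a common library size) in digits and 0.108 to 0.191 CPM in macrophages, counting error only. Levels are given as CPM with TMM scaling, computed separately for the 41 digits and the 9 macrophage libraries, so CPM values of digits and macrophages are not set against each other. Keratinocyte markers were abundant in the digits and summed to 0.248 to 1.55 CPM in the macrophages, whose macrophage markers summed to 10444 to 20777 CPM. Of the digits, 3 stood apart from their groups: 14-day NR replicate 2 had a normalized TPM sum of 3362791 against a median of 957141 in NR digits, 7-day NR replicate 2 had the fewest genes detected (10096), and 3-hour NR replicate 3 had the fewest counts. In 5 pairs of digits the labels share a mark, a date and a side: 12-hour NR replicate 3 with 0-hour NR replicate 1, 12-hour NR replicates 1 and 2 with 0-hour INT replicates 2 and 3, 3-day NR replicate 3 with 7-day NR replicate 1, and 14-day INT replicate 1 with 14-day NR replicate 3. What the mark stands for is not given, so it is unknown whether these pairs came from 1 animal, and no fit here pairs them. Digits are bulk tissue, so fewer cells of a type and less RNA per cell cannot be told apart in any digit result.

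Changes were tested with the quasi-likelihood test of edgeR, and a gene was called where its Benjamini-Hochberg adjusted p over all genes tested was under 0.05 and the group means of normalized counts, with 1 added to each, differed more than 2-fold. Fold changes are on the log2 scale with their standard error (SE). Every NR time point was compared with the same 3 NR digits at 0 hours, so those comparisons share their controls.

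The sequences before these genes' start sites were read first, because AREs and MREs are the known entry points of NRF2 and MTF1. RefSeq promoter entries on GRCm38.p6 were matched for 8 of the 10 genes, all but Hmox1 and Gclc. The ARE core was searched as TGACNNNGC, TGAGNNNGC or TGATNNNGC and the MRE core as TGCACNC or TGCGCNC, on both strands of the 250 bases before the start. Among all 27025 promoters of that length, 28.3% held an ARE core and 21.3% an MRE core. ARE cores were found before Srxn1 (2), Slc7a11 (2), Gclm (1) and Mt2 (1), and MRE cores before Mt2 (3), Gclm (2), Srxn1 (1) and Mt1 (1). Of the 27025 promoters, 1.28% held 3 or more MRE cores. The ARE core and the more distant MRE core of Gclm overlap. No core lay in the windows searched for Nqo1, Txnrd1 or Sod2. For Txnrd1 the table lists 3 starts, of which 1 was searched. A match is a run of letters, not a site shown to be bound.

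Srxn1 and Slc7a11 are shown because each holds an ARE core at the same distance, 45 to 37 bases before the start. Mt1 and Mt2 are shown because the windows searched for these neighbouring metallothionein genes differ in their MRE cores. Capitals mark the ARE cores in the first pair and the MRE cores in the second. The Srxn1 stretch is chr2:152105404-152105523 on the plus strand and the Slc7a11 stretch is chr3:50443614-50443733 on the minus strand. The Mt1 stretch is chr8:94178969-94179088 and the Mt2 stretch is chr8:94172368-94172617, both on the plus strand.
Srxn1: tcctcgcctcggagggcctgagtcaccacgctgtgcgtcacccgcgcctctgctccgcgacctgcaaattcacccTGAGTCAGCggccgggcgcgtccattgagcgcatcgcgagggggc
Slc7a11: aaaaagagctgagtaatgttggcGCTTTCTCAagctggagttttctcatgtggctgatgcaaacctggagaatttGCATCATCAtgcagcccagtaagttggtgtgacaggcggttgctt
Mt1: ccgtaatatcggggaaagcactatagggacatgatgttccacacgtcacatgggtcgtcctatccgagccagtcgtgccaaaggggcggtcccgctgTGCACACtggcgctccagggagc
Mt2: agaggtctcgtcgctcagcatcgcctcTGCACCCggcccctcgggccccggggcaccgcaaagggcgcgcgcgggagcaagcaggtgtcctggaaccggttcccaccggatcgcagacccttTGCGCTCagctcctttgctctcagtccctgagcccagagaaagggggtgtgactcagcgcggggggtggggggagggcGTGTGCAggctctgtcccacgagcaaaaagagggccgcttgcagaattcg
GENCODE lists further start sites for both metallothionein genes, 3 for Mt1 between 94179082 and 94179241 and 2 for Mt2 between 94172664 and 94172860, so the windows before those starts would hold other letters. MRE cores in those windows were not counted, so the difference between Mt1 and Mt2 holds only for the windows searched.

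**Figure D1:**
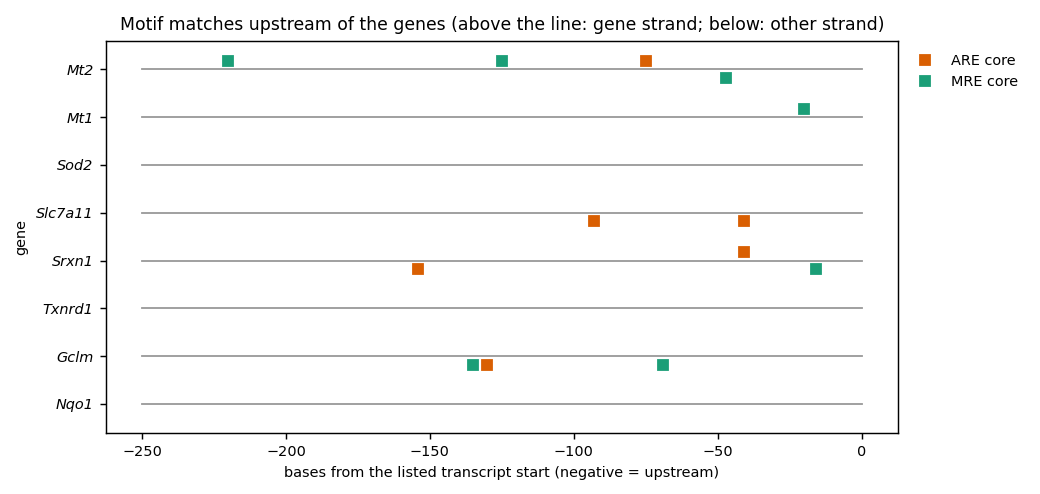
Positions of ARE and MRE cores in the 250 bases before the start site of the 8 genes with a promoter entry; the horizontal axis is the distance in bases before the start, marks above a line are on the gene's strand and marks below on the other strand. Srxn1 and Slc7a11 each hold 2 ARE cores, Mt2 holds 3 MRE cores and 1 ARE core, and Nqo1, Txnrd1 and Sod2 hold neither.

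In NR digits, Hmox1 was 3.97-fold higher than at 0 hours by 6 hours and 6.004-fold higher by 12 hours, and Slc7a11, Mt2, Txnrd1, Srxn1 and Nqo1 each rose at 1 or more of the times between 6 and 24 hours. At 6 hours 3 of the 10 genes rose (Hmox1, Mt2 and Srxn1), against 3.23% of the 13168 genes tested. At 12 hours 4 of 10 rose (Hmox1, Slc7a11, Mt2 and Txnrd1), against 6.76% of 13075 genes. None of the 3 digits at 12 hours was labelled above 67%. At 24 hours 3 of 10 rose (Slc7a11, Hmox1 and Nqo1), against 5.57% of 13420 genes. No member was called lower at any of these times, against 1.62%, 4.64% and 5.14% of all genes. In 1 fit of all 41 digits, whose shared spread includes the digits that stand apart, the members called were 1 at 6 hours (Srxn1), 3 at 12 hours (without Mt2) and 0 at 24 hours, and 116, 421 and 331 of all genes were called in place of 638, 1491 and 1437. The median log2 fold change of the 10 genes was 0.83 at 6 hours, 0.95 at 12 hours and 0.92 at 24 hours, beside medians of -0.03, -0.03 and -0.04 over all genes tested. At 3 hours no member was called, and neither was any of the 12562 genes tested with edgeR (0%), although 1362 of them had an unadjusted p under 0.05 and DESeq2 called 196.

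**Figure D2:**
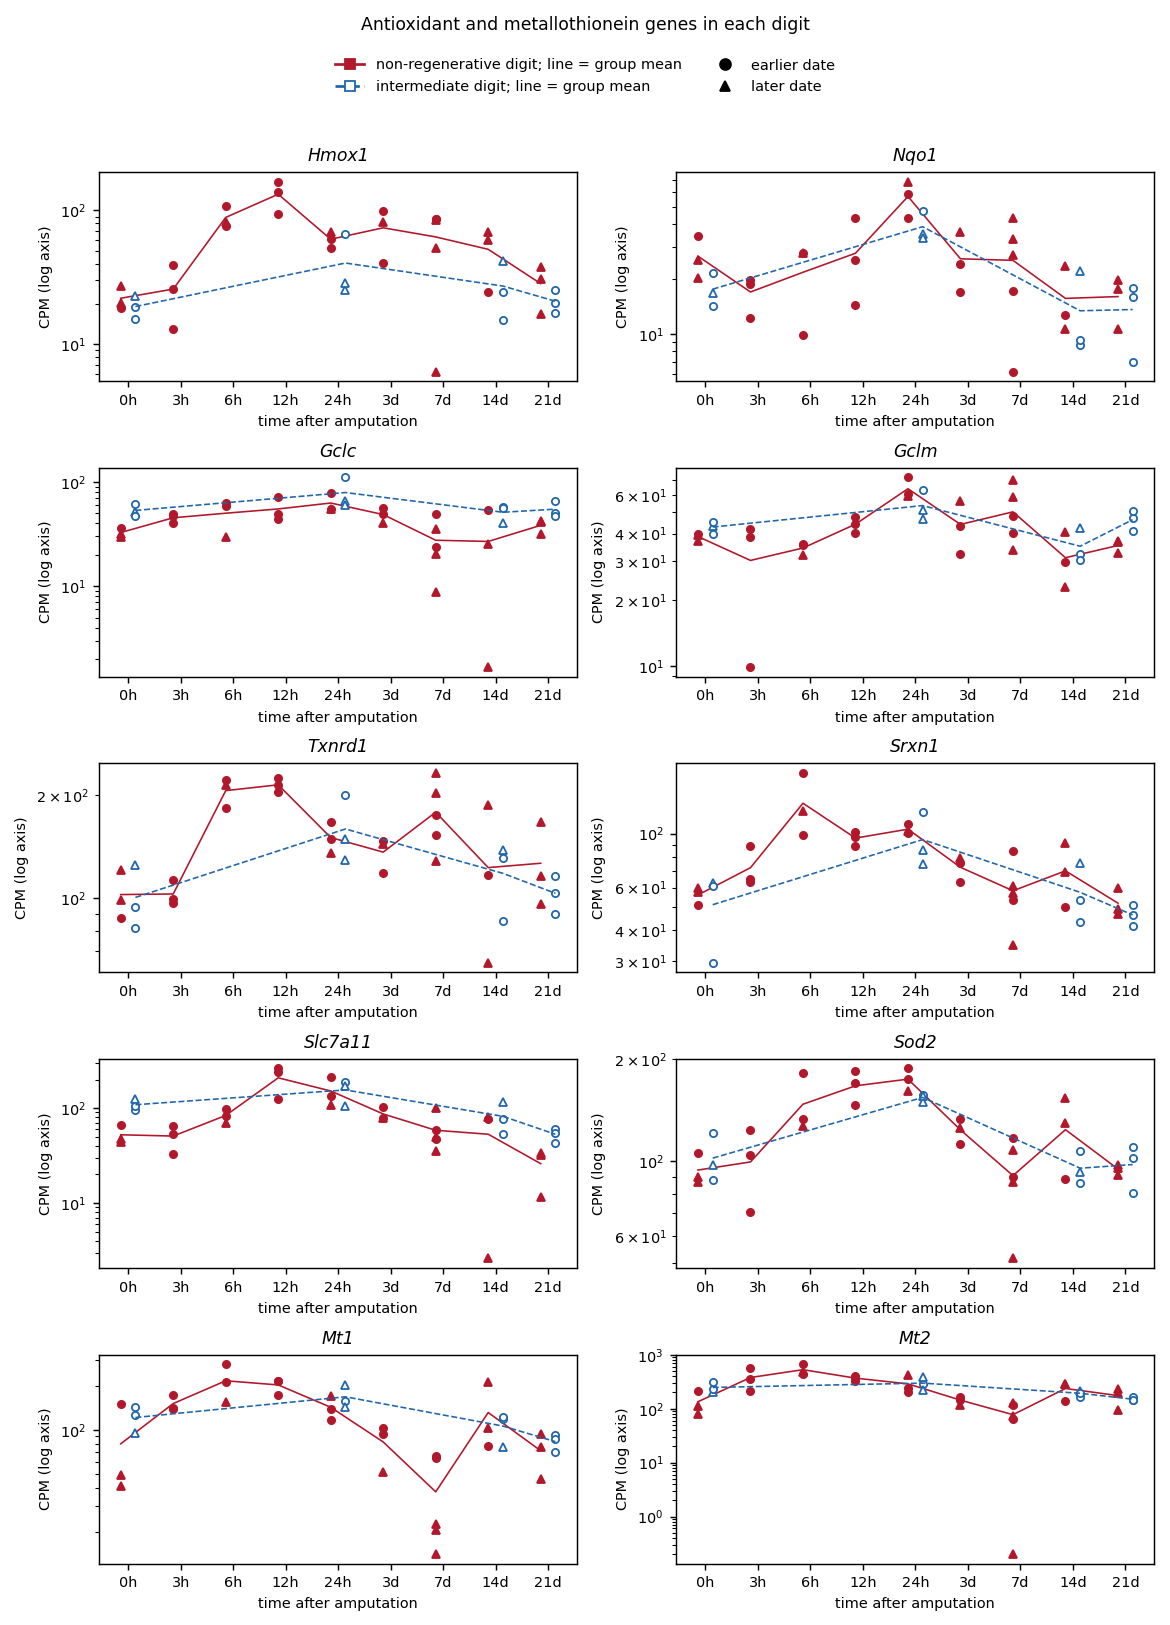
CPM of the 10 genes in each of the 41 digits by time after amputation, on a log axis, with NR digits filled in red, INT digits open in blue, circles for the earlier and triangles for the later labelled dates, and lines through the group means. Hmox1 reaches 138, 94.6 and 164 CPM in the NR digits at 12 hours from 18.8 to 27.2 CPM at 0 hours, and 7-day NR replicate 2 sits far below the other 7-day digits for Mt2 at 0.201 CPM.

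Hmox1 encodes the inducible heme oxygenase, which breaks heme down to iron, biliverdin and carbon monoxide; the gene lies at chr8:75093621-75100589 on the plus strand of GRCm38 and has 5 exons. The 3 NR digits at 0 hours held 18.8, 20.2 and 27.2 CPM, the 6-hour digits 108, 76.4 and 81.4 CPM, the 12-hour digits 138, 94.6 and 164 CPM and the 24-hour digits 61.5, 69.1 and 52.1 CPM. Every digit of these 3 times was above every digit at 0 hours, and the 12-hour group had the highest mean of the 9 times. The log2 fold change was 1.99 ± 0.22 (SE) at 6 hours, 2.59 ± 0.25 at 12 hours and 1.46 ± 0.20 at 24 hours, with edgeR adjusted p of 0.0042, 0.00085 and 0.0033, and the call held when any 1 of the 6 digits was left out. At 3 hours the digits held 38.8, 25.6 and 13.0 CPM and overlapped those at 0 hours. At 3 days they held 40.7, 82.1 and 99.6 CPM, all above 0 hours, with a log2 fold change of 1.75 ± 0.34 and an edgeR adjusted p of 0.068. At 7 days 4 digits held 52.7 to 86.9 CPM and replicate 2 held 6.24 CPM, below every digit at 0 hours. With that digit the 7-day log2 fold change of Hmox1 was 1.54 ± 0.69 (edgeR adjusted p = 0.999), and without it 1.83 ± 0.27 (edgeR adjusted p = 0.025). By 21 days the values of 30.5, 37.9 and 16.7 CPM overlapped those at 0 hours.

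Nqo1 encodes a quinone reductase that reduces quinones in a single step without forming radicals; it lies at chr8:107388225-107403206 on the minus strand. Its highest mean was at 24 hours, with 34.6, 20.2 and 25.4 CPM at 0 hours, 9.85 to 43.2 CPM over the 9 digits of 3, 6 and 12 hours, and 58.6, 68.6 and 43.3 CPM at 24 hours. The 24-hour digits were all above the 0-hour digits, and the log2 fold change was 1.09 ± 0.25 (edgeR adjusted p = 0.022). That call was lost without 0-hour replicate 2 (0.93, adjusted p = 0.074), 0-hour replicate 3 (1.06, adjusted p = 0.082), 24-hour replicate 1 (1.067, adjusted p = 0.079) or 24-hour replicate 2 (0.95, adjusted p = 0.064) in edgeR. At 3 days Nqo1 was back at 17.0, 36.3 and 24.1 CPM, and 3 days against 24 hours gave a log2 fold change of -1.09 ± 0.29 with an edgeR adjusted p of 0.086. In that comparison none of the 10 members and 2.76% of 12974 genes were called.

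Slc7a11, Gclc and Gclm supply glutathione, the main small antioxidant of cells. Slc7a11 is the cystine importer subunit that brings in the limiting amino acid, Gclc is the catalytic subunit and Gclm the modifier subunit of glutamate-cysteine ligase, which makes the first step of the synthesis. Slc7a11 (chr3:49892526-50443614, minus strand) held 66.0, 47.6 and 43.6 CPM at 0 hours, 98.9, 82.6 and 69.6 CPM at 6 hours, 262, 125 and 238 CPM at 12 hours and 136, 109 and 210 CPM at 24 hours. All 12-hour and 24-hour digits were above all 0-hour digits. The log2 fold change of Slc7a11 was 2.003 ± 0.30 at 12 hours and 1.54 ± 0.28 at 24 hours (edgeR adjusted p of 0.0052 and 0.0095), and both calls held when any 1 digit was left out. At 21 days Slc7a11 was at 32.5, 34.0 and 11.6 CPM, all below the 0-hour digits, with a log2 fold change of -1.02 ± 0.39 and an edgeR adjusted p of 0.625.

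Neither ligase subunit was called with all digits. Gclc held 36.2, 29.8 and 31.9 CPM at 0 hours and 55.0, 54.3 and 78.5 CPM at 24 hours, and Gclm held 39.9, 37.2 and 39.4 CPM and then 60.6, 59.2 and 72.2 CPM. For both genes the 24-hour digits lay above the 0-hour digits without overlap. The log2 fold changes at 24 hours were 0.94 ± 0.20 for Gclc and 0.72 ± 0.16 for Gclm with edgeR adjusted p of 0.018 and 0.019, under the 2-fold threshold. At 12 hours Gclc was at 0.76 ± 0.21 (edgeR adjusted p = 0.043) and Gclm at 0.19 ± 0.16 (edgeR adjusted p = 0.42). Gclc passed 2-fold at 24 hours when 0-hour replicate 1 (1.02), 24-hour replicate 1 (1.02) or 24-hour replicate 2 (1.05) was left out. In the fit of all 41 digits, Gclc also differed between the labelled date periods, with a later minus earlier log2 difference of -0.70 ± 0.23 (edgeR adjusted p = 0.047).

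Txnrd1 encodes cytosolic thioredoxin reductase, which recharges thioredoxin, and Srxn1 encodes sulfiredoxin, which repairs over-oxidized peroxiredoxins. Txnrd1 (chr10:82833951-82897712, plus strand) held 87.5, 98.8 and 121 CPM at 0 hours, 221, 182 and 214 CPM at 6 hours and 213, 204 and 224 CPM at 12 hours. The gene Eid3 overlaps it on the same strand and is counted in the same tables, so reads could be split between them. Txnrd1 was at a log2 fold change of 0.99 ± 0.18 at 6 hours (edgeR adjusted p = 0.023), just under 2-fold, and rose at 12 hours by 1.069 ± 0.17 (edgeR adjusted p = 0.0062), a change that was under 2-fold (0.96) without 0-hour replicate 1. At 7 days its 5 digits held 128 to 232 CPM, all above the 0-hour digits, with a log2 fold change of 0.81 ± 0.28 and an edgeR adjusted p of 0.74.

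Srxn1 (chr2:152105516-152111376, plus strand, 2 exons) was highest at 6 hours, with 178, 98.5 and 124 CPM against 50.8, 59.5 and 57.5 CPM at 0 hours. Its log2 fold change was 1.24 ± 0.23 at 6 hours (edgeR adjusted p = 0.023). Without 6-hour replicate 1, the highest digit, Srxn1 was at 0.99 and under 2-fold, and without 0-hour replicate 2 or 3 the edgeR adjusted p was 0.083 or 0.098. At 12 hours the digits held 96.9, 89.2 and 101 CPM and at 24 hours 110, 102 and 100 CPM. These 6 digits were all above the 0-hour digits, at log2 fold changes of 0.78 ± 0.14 and 0.90 ± 0.14 with edgeR adjusted p of 0.010 and 0.0057, under 2-fold.

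Sod2 encodes the manganese superoxide dismutase of mitochondria and lies at chr17:13006846-13040063 on the plus strand. It held 106, 90.0 and 86.8 CPM at 0 hours, 146, 184 and 171 CPM at 12 hours and 188, 161 and 176 CPM at 24 hours, with no overlap of either time with 0 hours. Its log2 fold change was 0.84 ± 0.16 at 12 hours and 0.89 ± 0.16 at 24 hours (edgeR adjusted p of 0.013 and 0.0090), so it passed the p threshold and not the 2-fold threshold. By 21 days Sod2 was at 95.6, 97.5 and 91.1 CPM, within the range at 0 hours.

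Mt1 (chr8:94179082-94180327) and Mt2 (chr8:94172664-94173568) lie 5513 bases apart on the plus strand, each with 3 exons. Their coding sequences, taken from the GENCODE transcripts Mt1-201 and Mt2-201, have 186 bases each and are 79.6% identical, with 38 differing bases, a longest shared run of 20 bases and 20 cysteine codons each. They are printed because counting could split reads between such similar genes, and capitals mark the bases that differ.
Mt1: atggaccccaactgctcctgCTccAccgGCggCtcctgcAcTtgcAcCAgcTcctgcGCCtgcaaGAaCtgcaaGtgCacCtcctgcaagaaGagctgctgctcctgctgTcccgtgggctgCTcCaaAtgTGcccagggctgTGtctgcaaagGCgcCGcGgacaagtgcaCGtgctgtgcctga
Mt2: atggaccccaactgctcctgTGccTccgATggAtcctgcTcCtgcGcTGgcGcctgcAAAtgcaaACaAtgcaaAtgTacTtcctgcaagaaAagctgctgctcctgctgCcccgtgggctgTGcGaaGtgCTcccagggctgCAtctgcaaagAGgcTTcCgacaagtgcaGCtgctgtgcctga

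Mt2 held 213, 113 and 78.2 CPM at 0 hours, 217, 359 and 561 CPM at 3 hours, 675, 444 and 470 CPM at 6 hours and 325, 375 and 407 CPM at 12 hours. All 9 digits of 3 to 12 hours were above all 3 at 0 hours, and the 6-hour group had the highest mean. The log2 fold change of Mt2 was 1.51 ± 0.44 at 3 hours (edgeR adjusted p = 0.33), 1.96 ± 0.38 at 6 hours (adjusted p = 0.027) and 1.46 ± 0.34 at 12 hours (adjusted p = 0.023) in edgeR. Both calls were lost in edgeR when any digit but 0-hour replicate 1 was left out, at 1.68 to 2.09 with adjusted p of 0.054 to 0.0995 at 6 hours and at 1.17 to 1.53 with adjusted p of 0.053 to 0.084 at 12 hours. At 24 hours Mt2 ranged from 207 to 420 CPM and overlapped 0 hours, with a log2 fold change of 1.09 ± 0.39 (edgeR adjusted p = 0.090).

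Mt1 held 151, 48.7 and 41.1 CPM at 0 hours, and this spread sets what can be said of it. At 3 hours it held 140, 174 and 140 CPM, at 6 hours 282, 213 and 155 CPM, at 12 hours 174, 217 and 217 CPM and at 24 hours 117, 172 and 139 CPM. The 6-hour and 12-hour digits were above all 0-hour digits, and the 3-hour and 24-hour digits were above 0-hour replicates 2 and 3 but overlapped replicate 1. With all 3 controls the log2 fold change of Mt1 was 1.42 ± 0.50 at 6 hours and 1.35 ± 0.46 at 12 hours (edgeR adjusted p of 0.12 and 0.072), and no time was called. Without 0-hour replicate 1 it was 1.76 at 3 hours, 2.25 at 6 hours, 2.18 at 12 hours and 1.67 at 24 hours, with edgeR adjusted p of 0.020, 0.0088, 0.00031 and 0.0017. That digit is the only 0-hour NR digit with an earlier labelled date, so without it all controls have later dates. All 3-hour and 12-hour digits have earlier dates, so time and date period cannot be told apart in the fits of those times without it. In the fit of all 41 digits Mt1 was lower in the later period by a log2 difference of -0.69 ± 0.20 (edgeR adjusted p = 0.022). The keratinocyte markers of 0-hour replicate 1 summed to 33340 CPM beside 73715 and 65901 CPM in replicates 2 and 3. Its macrophage markers summed to 243 CPM beside 159 and 151 CPM. The part of date or tissue make-up in the Mt1 level of that digit was not tested. Against that digit alone, the 12-hour digits, which all carry earlier dates, stood at 174 to 217 CPM for Mt1 beside 151, at 325 to 407 CPM for Mt2 beside 213, at 94.6 to 164 CPM for Hmox1 beside 18.8, at 125 to 262 CPM for Slc7a11 beside 66.0 and at 204 to 224 CPM for Txnrd1 beside 87.5. With 1 control digit in that period no test within it was made.

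From 3 days on, edgeR called no member against 0 hours in NR digits with all digits and the count filter, while DESeq2 and the fit without the filter called Hmox1 at 3 days. Over all genes, edgeR called 0.723% for day 3, 0.0537% for day 7, 0% for day 14 and 0.452% for day 21. DESeq2 called 450 genes in place of 96 at 3 days and 161 in place of 7 at 7 days. At 14 days, where edgeR called none of 13567 genes, 1044 had an unadjusted p under 0.05 and DESeq2 called 353, with no member among them. The medians of the 10 log2 fold changes were 0.39, 0.02, 0.32 and -0.06 at these times. The digits that stand apart widened several of these groups: 14-day replicate 2 held 1.68 CPM of Gclc (9 counts) and 2.61 CPM of Slc7a11 beside 53.5 and 25.4 CPM of Gclc and 76.1 and 80.6 CPM of Slc7a11 in the other two, and 7-day replicate 2 held 0.201 CPM of Mt2 (1 count) and 14.1 CPM of Mt1 beside 65.0 to 129 CPM of Mt2 and 20.5 to 66.4 CPM of Mt1 in the other 4 digits.

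When the 9 NR time points were tested together, so that a gene could differ at any time, 4 of the 10 members passed, against 7.62% of 14434 genes: Mt1 (edgeR adjusted p = 0.0088), Srxn1 (0.013), Hmox1 (0.022) and Slc7a11 (0.022). With the date period as a term, 2 of the 4 passed (Mt1 and Srxn1), Hmox1 was at an edgeR adjusted p of 0.051 and Slc7a11 at 0.108, and 6.66% of genes were called. Mt1 held in each of the 29 fits without 1 digit. Hmox1 was lost without 0-hour replicate 2 (0.052), 12-hour replicate 1 (0.061) or 12-hour replicate 3 (0.069), Slc7a11 without 12-hour replicate 1 (0.084) or 3 (0.072), and Srxn1 without 6-hour replicate 1 (0.083). The other 6 members had edgeR adjusted p of 0.064 for Sod2, 0.072 for Txnrd1, 0.098 for Mt2, 0.17 for Nqo1, 0.34 for Gclm and 0.66 for Gclc. Without the 3 digits that stand apart, 8 members passed against 22.4% of 14906 genes, with Mt2 (0.00041), Sod2 (0.0012), Txnrd1 (0.0023) and Gclm (0.028) added. With 7-day replicate 2 alone left out, 7 passed against 14.3% of 14536 genes, and Mt2 was at 0.00071, Sod2 at 0.033 and Txnrd1 at 0.036.

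**Figure D3:**
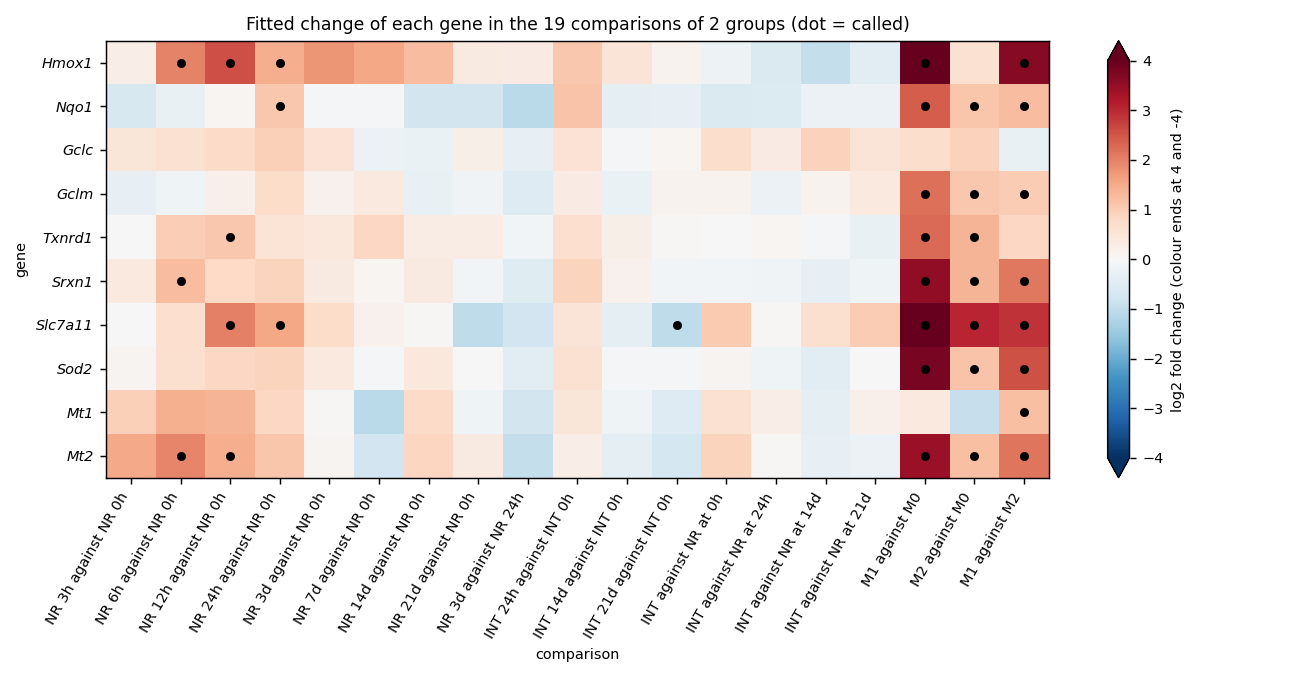
Log2 fold change of each gene (rows) in 19 comparisons (columns), coloured from blue for lower to red for higher with the colour scale ending at 4 in either direction; a dot marks a called change. Dots lie at 6, 12 and 24 hours in NR digits and in all 3 macrophage comparisons, with a single one in INT digits for Slc7a11 at 21 days; with library totals alone the M1 against M0 values of Gclc (-0.06) and Mt1 (-0.38) turn negative.

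In INT digits no member was called at 24 hours, where 0.0152% of 13172 genes were called. All 10 log2 fold changes were above 0 there with a median of 0.58, beside 0.00 over all genes. Nqo1 held 16.8, 21.7 and 14.2 CPM at 0 hours and 47.4, 35.4 and 33.5 CPM at 24 hours, with no overlap. Its log2 fold change was 1.13 ± 0.24 (95% interval 0.58 to 1.68, edgeR adjusted p = 0.12), and DESeq2 gave an adjusted p of 0.0047. Hmox1 held 22.9, 15.5 and 18.9 CPM and then 67.2, 25.6 and 28.5 CPM, so that 1 digit was well above the other two, at 1.074 ± 0.38. No member was called at 14 days, where 1.68% of 13334 genes were.

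Slc7a11 was the 1 member called in INT digits, lower at 21 days than at 0 hours, where 0.165% of 13360 genes were called lower and 1.39% in either direction. It fell from 125, 95.1 and 106 CPM to 60.7, 43.2 and 55.2 CPM, a log2 fold change of -1.02 ± 0.17 (edgeR adjusted p = 0.0205). The groups do not overlap, but the change sits at the 2-fold threshold. The call was lost without 0-hour replicate 1 (-0.91, adjusted p = 0.053), 0-hour replicate 2 (-1.10, adjusted p = 0.062), 21-day replicate 2 (-0.88, under 2-fold) or 21-day replicate 3 (-1.05, adjusted p = 0.086) in edgeR. All 3 INT digits at 21 days have earlier labelled dates, as do 2 of the 3 at 0 hours. Marker levels moved between the same groups. Of 6 fibroblast markers 4 were higher at 21 days (Col1a1 3.63, Col1a2 3.20, Lum 2.55 and Col3a1 2.35), and their summed level went from 2823 to 8489 CPM at 0 hours to 19368 to 44822 CPM. All 5 erythroid markers were lower, with sums of 723 to 2156 CPM and 2.04 to 18.2 CPM, and 1 of 4 neutrophil markers tested was higher, with sums of 48.2 to 70.5 CPM and 96.5 to 147 CPM. None of 9 macrophage or 7 keratinocyte markers was called. Their part in the fall of Slc7a11 was not tested.

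INT and NR digits were then compared at the same time, which asks whether the amputation level moved these genes. No member was called at 0 hours, 24 hours, 14 days or 21 days, where 0%, 0%, 0% and 0.648% of all genes were called by edgeR. At 21 days all INT digits have earlier and all NR digits later labelled dates, so level and date period cannot be told apart there. Unadjusted p under 0.05 was seen for 491 of 13500, 1472 of 13024 and 270 of 13421 genes at the first 3 of these times, and DESeq2 called 17, 155 and 0. Over the 4 shared times together, edgeR called none of 14768 genes (0%), with 874 at an unadjusted p under 0.05. The largest differences of members over the 4 times were 0.68 ± 0.31 for Slc7a11 (95% interval 0.04 to 1.32), 0.61 ± 0.27 for Gclc (0.06 to 1.16) and -0.54 ± 0.21 for Hmox1 (-0.97 to -0.11), each with an edgeR adjusted p of 0.787. The remaining 7 lay between -0.41 and 0.18. In the test of a different time course, none of the 14768 genes passed in edgeR (0%), 1048 had an unadjusted p under 0.05, and the members' edgeR adjusted p ran from 0.699 for Mt2 to 0.994 for Srxn1.

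The widest difference at the moment of amputation was that of Slc7a11. INT digits held 125, 95.1 and 106 CPM and NR digits 66.0, 47.6 and 43.6 CPM at 0 hours, without overlap, at a log2 difference of 1.06 ± 0.19 and an edgeR adjusted p of 0.81, while DESeq2 gave 0.0044. At 24 hours the same gene did not separate the groups, with 190, 104 and 172 CPM in INT and 136, 109 and 210 CPM in NR digits, a log2 difference of 0.04 ± 0.31. Hmox1 at 24 hours was at -0.58 ± 0.35 with all digits, and at -1.17 (edgeR adjusted p = 0.013) without INT replicate 1, whose 67.2 CPM lay within the NR range of 52.1 to 69.1 CPM. That digit was amputated at 41%, beside 50% and 52% in INT replicates 2 and 3, and is the only 24-hour INT digit with an earlier labelled date. The part of level or date in its Hmox1 value was not tested.

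Among the regulators of this pathway, which were listed for this work, 2 of 9 were called higher at each of 6, 12 and 24 hours in NR digits and none lower. Of all genes, 3.23%, 6.76% and 5.57% were called higher at these times and 1.62%, 4.64% and 5.14% lower. Bach1 rose by a log2 fold change of 1.34 ± 0.16 at 6 hours, 1.19 ± 0.16 at 12 hours and 1.09 ± 0.15 at 24 hours (edgeR adjusted p of 0.0062, 0.0034 and 0.0030). Nfe2l2 was at 0.996 ± 0.17 at 6 hours, just under 2-fold, and rose by 1.24 ± 0.14 at 12 hours and 1.14 ± 0.18 at 24 hours (edgeR adjusted p of 0.0016 and 0.0049). Maff, a small partner protein of NRF2, was the other gene called at 6 hours, at 1.03 ± 0.22. Keap1 was not called at any time, with values of -0.35, -0.28 and -0.37, and neither was the metal sensor Mtf1, at 0.46, 0.31 and -0.14. In INT digits at 24 hours none of the 9 regulators was called, where 0.0152% of all genes were.

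Of 25 further NRF2 target genes, 3 were called higher at 12 hours and none lower, against 6.76% higher and 4.64% lower of all genes. They were Gsta4, a glutathione transferase, at 2.60 ± 0.22, Gsr, which regenerates reduced glutathione, at 1.81 ± 0.15, and Txn1, thioredoxin itself, at 1.1108 ± 0.22. At 24 hours 5 were higher, against 5.57% higher and 5.14% lower of all genes, with Gsta4 at 3.95 ± 0.23 and Gsr at 2.118 ± 0.25, joined by Gsta1, Gpx2 and Txn1. The median of the 25 was 0.18 at 12 hours and 0.36 at 24 hours, beside -0.03 and -0.04 over all genes. Of 13 metal and iron genes tested at 12 hours, Slc39a14, an importer of zinc and iron, was higher at 3.15 ± 0.18 and Mt4, a metallothionein of stratified epithelium, lower at -1.48 ± 0.20, the opposite direction to Mt2. Further lists gave 1 of 10 other antioxidant enzymes (Glrx, 1.22), 2 of 8 genes listed for the amino acid stress factor ATF4, its own gene included (Sesn2 at 1.72 and Asns at 1.18), and 0 of 6 glucocorticoid targets called at 12 hours.

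Cell-type markers moved at the same times as the members. Of all genes, 6.76% were called higher and 4.64% lower at 12 hours, with 1.62% lower at 6 hours and 5.14% lower at 24 hours. All 9 neutrophil markers were higher at 12 hours with a median log2 fold change of 3.72, and their summed level went from 32.1 to 54.1 CPM at 0 hours to 136 to 245 CPM at 6 hours, 370 to 751 CPM at 12 hours and 556 to 994 CPM at 24 hours. Erythroid markers went the other way, with 4 of 5 lower at 12 hours and a summed level of 1072 to 1334 CPM at 0 hours and 146 to 422 CPM at 12 hours. Of 9 macrophage markers 2 were higher, and of 7 keratinocyte markers 3 were higher and 1 lower. Fibroblast markers were lower for 0 of 6 at 6 hours, 1 of 6 at 12 hours (Col1a1, -1.02) and 3 of 6 at 24 hours (Col1a1 -1.40, Col1a2 -1.48 and Col3a1 -1.26), with summed levels of 3023 to 5096 CPM at 0 hours, 1158 to 5516 CPM at 6 hours, 1595 to 2936 CPM at 12 hours and 1068 to 2535 CPM at 24 hours. In INT digits the neutrophil sum was 48.2 to 70.5 CPM at 0 hours and 129 to 703 CPM at 24 hours. The part of these shifts in the members' changes was not tested.

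Across the 41 digits, likeness of pattern was measured by Spearman's rho of CPM over 13259 genes, as a description of digits that share time points, dates and controls. Mt1 and Mt2 were each other's most alike gene at a rho of 0.90, followed for Mt1 by Rpl35 and Tubb4b (0.83 each) and for Mt2 by Rps25 (0.85) and Cluh (0.84). Hmox1 was most like Klk9 (0.86), Il1f9 (0.83) and Glrx (0.81), and Txnrd1 most like Il1a (0.87), Serp1 (0.80) and Vmp1 (0.80). Srxn1 was most like Urah (0.90), Sprr1a (0.89) and Tuba1c (0.88), and Sod2 most like Agpat2 (0.84), Lce3c and Lce3d (0.82 each). Slc7a11 was nearest to Hcar2 (0.84), Cd300lf (0.77) and Slfn4 (0.76), Nqo1 to Pkm (0.75), Car2 (0.75) and Gsta4 (0.74), Gclc to Uqcrc2, Fam120a (0.68 each) and Krtdap (0.68), and Gclm to Grip1 (0.71), Suclg2 (0.65) and Lmnb1 (0.65). Among the other pairs of members the highest values were 0.80 for Hmox1 with Txnrd1 and 0.79 for Sod2 with Srxn1. The rho with the summed neutrophil markers was 0.61 for Slc7a11, 0.60 for Hmox1 and Txnrd1, 0.21 for Mt2 and 0.19 for Mt1.

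In macrophages most of the 10 genes were higher in both activated states than in M0. M1 macrophages had 8 of 10 higher than M0, against 20.1% of 12939 genes called higher, with Slc7a11 at 65.1-fold, Hmox1 at 20.1-fold, Sod2 at 13.8-fold, Srxn1 at 11.8-fold and Mt2 at 11.0-fold. M2 macrophages had 7 of 10 higher than M0, against 11% of 12976 genes, and Slc7a11 led there too at 8.19-fold. M1 had 8 of 10 higher than M2, against 20.1% of 12934 genes. No member was called lower in any of the 3 comparisons, against 26% of genes in M1 and 11.3% in M2 versus M0 and 27.9% in M1 versus M2. The median log2 fold change of the 10 genes was 2.93 in M1 against M0, 1.1115 in M2 against M0 and 1.66 in M1 against M2, beside -0.09, -0.00 and -0.08 over all genes. With TMM scaling, the 3 libraries of each state did not overlap with those of any other state for every member. The share of all genes so separated was not counted. Differences were common over all genes, with an unadjusted edgeR p under 0.05 for 11164 of 12939 in M1 against M0. The same held for 9945 of 12976 in M2 against M0 and 11411 of 12934 in M1 against M2.

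**Figure D4:**
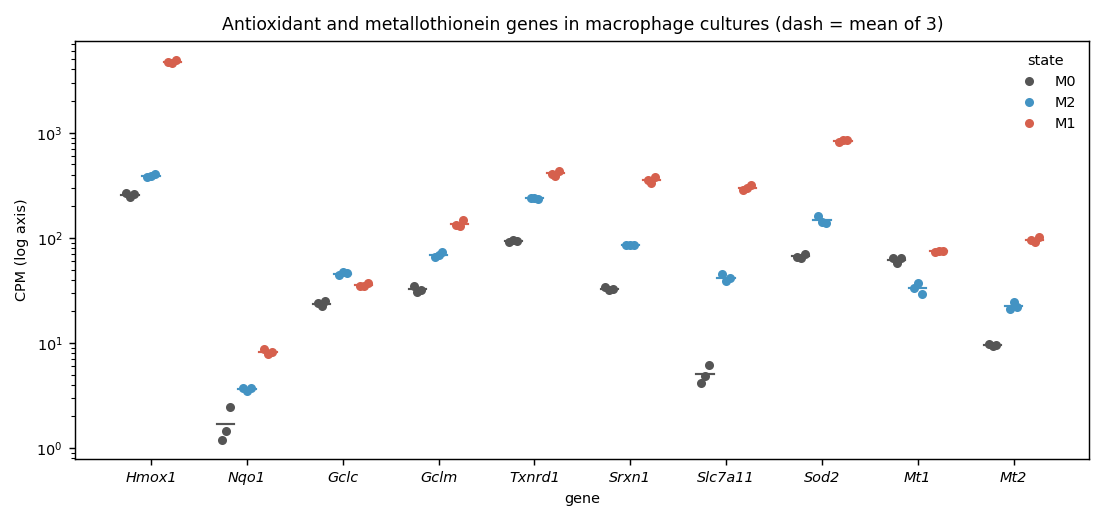
CPM of the 10 genes in each of the 9 macrophage libraries on a log axis, with points for the 3 libraries of M0, M2 and M1 and a dash at each mean. Hmox1 stands at 242 to 265 CPM in M0, 379 to 408 CPM in M2 and 4584 to 4949 CPM in M1, while Gclc is highest in M2 and Mt1 lowest in M2; with library totals alone Gclc and Mt1 in M1 fall below M0.

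The scaling matters for the smaller differences, because the TMM factors were 0.742 to 0.770 in M1, 1.10 to 1.14 in M2 and 1.16 to 1.21 in M0. With library totals alone, a setting chosen after seeing the data, the median of all genes in M1 against M0 moved from -0.09 to -0.86 and in M1 against M2 from -0.08 to -0.70. Under it the count stayed at 8 members in M1 against M0 and 7 in M2 against M0, and went from 8 to 5 in M1 against M2. Over all genes the split moved from 2602 higher and 3359 lower to 1384 and 5890 in M1 against M0, from 1427 and 1469 to 1290 and 1629 in M2 against M0, and from 2598 and 3610 to 1425 and 5371 in M1 against M2.

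Hmox1 held 265, 242 and 263 CPM in M0, 379, 388 and 408 CPM in M2 and 4682, 4584 and 4949 CPM in M1. The log2 fold change was 4.33 ± 0.06 in M1 against M0 (edgeR adjusted p = 1.9e-14) and 0.59 ± 0.05 in M2 against M0, under 2-fold (edgeR adjusted p = 1.3e-06). On the length-corrected scale of the authors' normalized TPM it was the most abundant member in M1, at 6831 ± 192 (SD, n = 3), followed by Mt2 at 566 ± 20.4. Nqo1 was the least abundant member in M1 on that scale, at 12.04 ± 0.536. By CPM it held 1.21, 1.46 and 2.46 CPM in M0 (39, 38 and 66 counts), 3.76, 3.49 and 3.71 CPM in M2 and 8.74, 7.78 and 8.25 CPM in M1. It rose by 2.41 ± 0.21 in M1 and 1.09 ± 0.23 in M2, and the M2 call was under 2-fold without M0 replicate 1 (0.88), while leaving out M0 replicate 2 gave 1.015 and mean normalized counts that differed by less than 2-fold.

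Slc7a11 had the largest change of the 10 in both activated states. It held 4.21, 4.88 and 6.14 CPM in M0, 44.997, 38.7 and 41.6 CPM in M2 and 283, 298 and 321 CPM in M1. The log2 fold change was 6.03 ± 0.10 in M1 against M0, 3.03 ± 0.11 in M2 against M0 and 2.89 ± 0.07 in M1 against M2 (edgeR adjusted p of 7.9e-14, 2.0e-09 and 3.6e-14). The 3 states stood in the order M0, M2, M1 with no overlap.

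The 2 ligase subunits parted in macrophages. Gclm followed the order M0, M2, M1 with 34.9, 30.6 and 32.0 CPM, then 65.2, 68.0 and 74.1 CPM, then 132, 129 and 149 CPM. It was higher by 2.20 ± 0.06 in M1 and 1.1 ± 0.06 in M2 against M0, and by 1.03 ± 0.06 in M1 against M2, a call that was under 2-fold without M1 replicate 3 (0.97). Gclc held 23.9, 22.3 and 25.0 CPM in M0, 35.2, 35.0 and 36.9 CPM in M1 and 43.9, 47.0 and 46.1 CPM in M2, so M2 was the highest state. Its log2 fold changes of 0.72 ± 0.06 in M1 and 0.93 ± 0.06 in M2 were under 2-fold, and with library totals alone the M1 value was -0.06. The ratio of Gclm to Gclc, taken within each library on normalized TPM and so free of library scaling, was 2.50 ± 0.195 in M0, 3.33 ± 0.158 in M2 and 10.5 ± 0.311 in M1 (SD, n = 3 each), with no overlap between states.

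Txnrd1 and Srxn1 followed the order M0, M2, M1. Txnrd1 held 91.1, 94.6 and 92.5 CPM in M0, 237, 240 and 236 CPM in M2 and 409, 389 and 435 CPM in M1, at log2 fold changes of 2.27 ± 0.05 in M1 and 1.34 ± 0.04 in M2. M1 against M2 was 0.84 ± 0.05, under 2-fold, and 0.22 with library totals alone. Srxn1 held 34.1, 32.2 and 32.5 CPM, 86.4, 86.1 and 85.4 CPM, and 355, 336 and 377 CPM, at 3.56 ± 0.05 in M1, 1.37 ± 0.04 in M2 and 2.10 ± 0.05 in M1 against M2. For both genes the gaps between states were far wider than the spread within any state.

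Sod2 held 65.7, 64.5 and 70.1 CPM in M0, 163, 141 and 138 CPM in M2 and 820, 858 and 846 CPM in M1. It rose by 3.78 ± 0.06 in M1 (edgeR adjusted p = 3.5e-14) and 1.13 ± 0.07 in M2 (edgeR adjusted p = 5.9e-08). In digits the same gene did not pass 2-fold at any time.

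The metallothionein genes, which moved together in digits, differed in macrophages. Mt2 held 9.84, 9.38 and 9.56 CPM in M0, 20.8, 24.6 and 21.8 CPM in M2 and 95.9, 91.6 and 101 CPM in M1, at 3.45 ± 0.05 in M1 and 1.21 ± 0.08 in M2 (edgeR adjusted p of 4.9e-14 and 1.6e-07). Mt1 held 64.5, 57.5 and 63.8 CPM in M0, 33.1, 37.1 and 28.97 CPM in M2 and 73.6, 75.8 and 74.2 CPM in M1. Its M2 value lay below M0 in every library at -0.92 ± 0.08, under 2-fold with all libraries and past it (-1.01) without M2 replicate 2. Its M1 value was 0.39 ± 0.05 against M0 with TMM and -0.38 with library totals alone, so no direction holds for Mt1 in M1. Against M2, Mt1 was higher in M1 by 1.21 ± 0.07, or 0.60 with library totals alone.

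The Mt2 to Mt1 ratio on normalized TPM shows the same split without any scaling between libraries. It was 0.174 ± 0.00757 in M0, 0.762 ± 0.0701 in M2 and 1.45 ± 0.0847 in M1 (SD, n = 3 each), with no overlap. In digits Mt2 exceeded Mt1 in 40 of 41, at ratios of 1.09 to 6.65, and the exception was 7-day NR replicate 2 at 0.0154, where Mt2 rests on 1 count. At 12 hours the digits' ratio was 2.007 ± 0.0931 and at 0 hours 2.16 ± 0.492 in NR. On the same scale Mt2 was the most abundant member in NR digits at 6 hours, at 1808, ahead of Mt1 at 671.

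**Figure D5:**
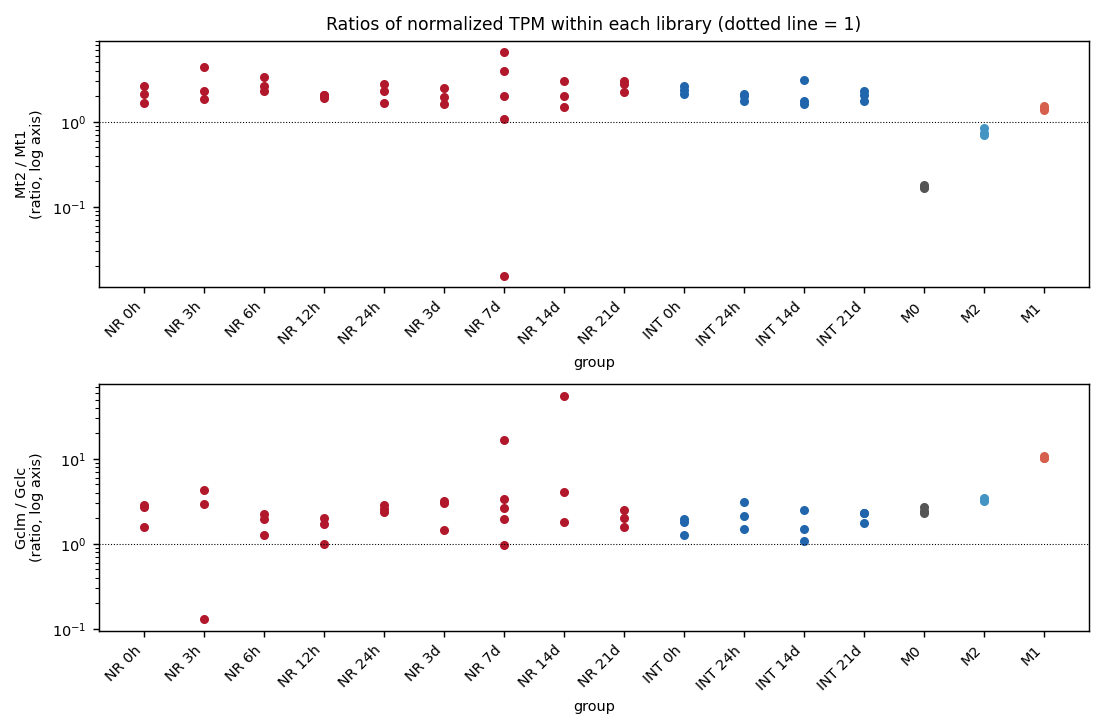
Ratio of normalized TPM of Mt2 to Mt1 and of Gclm to Gclc in each digit and macrophage library, on a log axis, with points for single libraries grouped by time or state. The Mt2 to Mt1 ratio climbs from 0.174 in M0 to 1.45 in M1 and lies between 1.09 and 6.65 in 40 digits, and the Gclm to Gclc ratio is 10.5 in M1 against 2.50 in M0.

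Among the 9 regulators, 6 were higher in M1 than in M0, against 20.1% of all genes. None was called in M2, against 11% of all genes higher and 11.3% lower. The 3 largest changes in M1 were those of Maff (2.40 ± 0.10), Sqstm1, a cargo protein that binds KEAP1 (2.39 ± 0.05), and Mafk (2.16 ± 0.07). Keap1 itself was higher at 1.80 ± 0.05, Bach1 was at 0.98 ± 0.04 and Nfe2l2 at -0.71 ± 0.05, both under 2-fold. In M2 Nfe2l2 was at -0.53, Keap1 at 0.84 and Bach1 at -0.01. Mtf1 was at 0.76 in M1 and 0.04 in M2, under 2-fold in both.

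The lists that follow stand beside 20.1% of all genes higher and 26% lower in M1 than in M0, and 11% higher and 11.3% lower in M2 than in M0. Of 21 further NRF2 targets tested, 9 were higher and 4 lower in M1 than in M0, among them Prdx1, a peroxiredoxin that SRXN1 repairs, at 4.06 ± 0.06, Gsr at 2.95 ± 0.05 and Ephx1, an epoxide hydrolase, at -2.60 ± 0.08. In M2, 2 were higher and 2 lower, with Prdx1 at 1.54 ± 0.05, Cat, catalase, at -1.49 ± 0.06 and Gstm1 at -1.44 ± 0.06. Of 10 other antioxidant enzymes 4 were higher and 3 lower in M1, led by Glrx (5.80), Prdx5 (3.29) and Sod3 (2.26), and 3 were higher and 1 lower in M2, led by Sod3 (4.05), Glrx (2.66) and Gpx3 (-1.82). Metal and iron genes split in M1, with 3 higher and 4 lower of 12, where the iron store Fth1 was at 2.98, the transferrin receptor Tfrc at -3.40 and the zinc importer Slc39a8 at -2.89. In M2 3 of 13 were higher and 2 lower, with the iron exporter Slc40a1 at -3.42 and Slc39a8 at -2.14. The third metallothionein listed, Mt3, was at 0 counts in all M0 libraries and at most 20 counts in M2, so no fold is given.

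Sources of reactive oxygen and nitric oxide had 5 of 8 higher and 1 lower in M1, where Nos2, the inducible nitric oxide synthase, held 5338 to 5559 CPM against 0.557 to 1.38 CPM in M0, followed by Xdh (1.88) and Ncf4 (1.60), and 3 higher and 2 lower in M2, with Nos2 at 3.81, Ncf1 at -1.37 and Xdh at 1.15. The ATF4 list, which holds the factor's own gene Atf4 beside targets, had 4 of 8 higher and 1 lower in M1. Trib3 (2.91), Ddit3 (2.72) and Atf4 (2.29) led there. In M2 5 of 8 were higher, led by Asns (1.95), Trib3 (1.41) and Atf4 (1.36). Of 6 glucocorticoid targets 1 was higher and 2 lower in M1 (Dusp1 at 5.61, Zbtb16 at -3.02 and Fkbp5 at -1.93) and 2 were higher and 2 lower in M2 (Zbtb16 at -4.09, Tsc22d3 at -2.10 and Sgk1 at 1.31). All 7 M1 markers were higher in M1 than in M0, but 6 of the 7 were also higher in M2 than in M0, with Nos2 at 3.81, Cxcl10 at 3.06, Cxcl9 at 2.27 and Irf5 at 1.49, and Il12b was lower at -1.61. Of 7 M2 markers 4 were higher in M2, Mgl2 at 4.91, Chil3 at 3.06, Retnla and Arg1, and Clec10a was lower at -1.58. No fold is given for Retnla and Arg1, which had at most 1 and 6 counts in an M0 library. In M1 against M0, 2 of 6 M2 markers were higher, Arg1 and Il4ra (2.73), and 4 were lower.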

How the data were processed

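Mouse digits (41) and bone marrow-derived macrophages (9) were profiled by poly A+ LM-Seq with single-end reads, and groups were taken from the sample labels. The authors mapped reads with Bowtie and estimated with RSEM 1.2.3 the expected counts that they deposited for GRCm38 (mm10 per the labels) without normalization. They also deposited a signal, TPM normalized across libraries with median-by-ratio factors, used here only to compare genes and form ratios. Dates had replaced 26 gene names, which were restored. The 10 genes and the gene lists were chosen with earlier results of these data known. The rule for named genes was all 10 members, up to 3 called genes with the largest change per pathway list at NR 12 hours, M1 and M2 against M0, the regulators Nfe2l2, Keap1, Bach1 and Mtf1, and the 3 genes most alike to each member; Maff at 6 hours, Gsta4, Gsr, Gsta1, Gpx2 and Txn1 at 24 hours were named after their values were seen.

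Expected counts were rounded and tested with edgeR 4.0.16 in R 4.3.3 (filterByExpr with a minimum count of 10, TMM, glmQLFit, glmQLFTest) over the groups compared, and p-values were adjusted over all genes tested. The EBSeq test of the study was not used here. Scripts were tested on simulated data. Replicates differed beyond counting error (chi-square per degree of freedom 3.05 to 411 over 55 pairs). The labels do not say that digits or cultures were independent in every case, so p-values measure the spread between these samples, which may be technical. Alternatives were no count filter, DESeq2 1.42.0 size factors or test, no fold threshold, 1 fit of all digits with or without date period, a replicate block, leaving out each sample and, chosen after seeing the data, leaving out the digits that stand apart and scaling by library totals alone. Regenerative digits were not analysed here. The result of 1 further list at NR 12 hours is not reported here.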

Additional observations from a re-analysis of the deposited data

How the results depend on the processing

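Counts of members called are given as reported and then under the alternative. DESeq2 called 1 in place of 0 at NR 3 hours (Mt2), NR 3 days (Hmox1), NR 3 days against 24 hours and INT 24 hours (Nqo1 in both) and INT against NR at 0 hours (Slc7a11). Over the 9 NR times it called 7 members in place of 4, against 30.5% of 14434 genes in place of 7.62%. Without the count filter 1 was called at NR 3 days (Hmox1) and at NR 3 days against 24 hours (Nqo1). Without the fold threshold 7 were called at 12 hours and 7 at 24 hours. The share of all genes called by adjusted p alone is not given here, so these 2 counts are not read as a result about the members. Under a looser rule, 4589 of 13075 and 4420 of 13420 genes had an unadjusted edgeR p under 0.05 at these times. In 1 fit of all 41 digits, with or without the date period, NR 6 hours gave 1 (Srxn1), NR 24 hours gave 0 and INT 21 days gave 0, while NR 12 hours gave 2 with the period; Hmox1 stayed at a log2 fold change of 1.99 at 6 hours, with an adjusted p of 0.081. Such a fit shares 1 estimate of spread with the digits that stand apart. The date period left 2 of 4 over the 9 NR times (Hmox1 at 0.051, Slc7a11 at 0.108), leaving out the digits that stand apart gave 8, and library totals alone left 5 in M1 against M2, both of the latter chosen after seeing the data. Leaving out 1 sample gave 0 to 1 member at NR 3 hours, 1 to 4 at 6 hours, 3 to 4 at 12 hours, 2 to 6 at 24 hours, 0 to 1 at 3 days, 7 days, 3 days against 24 hours, INT 21 days and INT against NR at 24 hours, 8 to 8 in M1 against M0, 6 to 8 in M2 against M0, 7 to 8 in M1 against M2 and 2 to 7 over the 9 NR times. Of 130 such alternatives to the counts, other than leaving out samples, 110 stayed within 1.5 times, where a count of 0 that stayed at 0 also qualified. None turned the direction of a called member. Called members kept their call in 65 of 80 alternatives in NR digits and 4 of 6 in INT digits. In macrophages they kept it in 92 of 96 for M1 against M0 or M2 and 42 of 42 for M2 against M0. In macrophages the replicate block gave 8, 7 and 8 members in M1 against M0, M2 against M0 and M1 against M2, as without it, and changed no call. Same-numbered libraries of different states deviated with correlations of -0.118 to 0.138 and differently numbered ones with -0.129 to 0.147. No pairing by number was seen, but the labels do not say whether cultures shared an animal. Digit numbers follow accession order and pair nothing. Over all genes, DESeq2 called 1113 in place of 638 at NR 6 hours, 450 in place of 96 at 3 days, 161 in place of 7 at 7 days, 252 in place of 62 at 21 days, 748 in place of 358 at 3 days against 24 hours, 349 in place of 2 at INT 24 hours, 507 in place of 224 at INT 14 days, 413 in place of 186 at INT 21 days, 204 in place of 89 in INT against NR at 21 days and 4406 in place of 1100 over the 9 NR times, where DESeq2 size factors in edgeR gave 2354. Depth limits Nqo1 in M0 and every low value in 3-hour NR replicate 3.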
